A study of Mus musculus with 12 samples.

Results

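The comparison described here is the effect of Trem2 loss in young mice: hippocampal RNA of mice with the App knock-in and a Trem2 knockout was set against that of mice with the App knock-in alone, all at 3 months of age. It uses 6 of the 12 libraries of the series, chosen by the genotype and age in their labels, with 3 libraries per group and 1 mouse identifier per library. All mice were male and carried the AppNL-G-F allele, a humanised App gene with familial Alzheimer mutations under its own promoter, so the control group (genotype AppNL-G-F, called App knock-in below) carries the amyloid-producing allele too. The other group has the genotype AppNL-G-F; Trem2 KO and is called Trem2 KO below. No mouse without the App knock-in is among the samples, so the comparison concerns Trem2 in an amyloid model and not Trem2 in a healthy brain. The part of Trem2 that is deleted, the age in days, the cage, the litter and the hour of tissue collection are not given in the labels, and a difference in any of these between the groups cannot be told apart from the knockout itself. The corresponding groups at 9 months (3 libraries each) served to set the same genes side by side at a later age.

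TREM2 is a receptor of microglia, the resident macrophages of the brain, that binds lipids and lipoproteins and signals through the adaptor TYROBP. In amyloid models it is known for allowing microglia to gather at plaques and to switch on plaque-associated genes such as Clec7a and Gpnmb. Neurons, astrocytes and oligodendrocytes do not normally express it, so differences in their genes concern cells beyond the one that lost the receptor. RNA-binding proteins decide how transcripts are spliced, exported, translated and degraded, and a few of them, CIRBP and RBM3 among them, are induced by mild cold and are controlled by temperature cycles.

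At 3 months the libraries held 14627892 to 24594655 counted reads, and a gene with 0 reads could still have stood at up to 0.122 to 0.205 CPM, the level of 3 reads (CPM are counts scaled to a common library size, and this limit covers counting error only). Mitochondrial transcripts took 1.25% to 1.37% of the reads and the 10 most abundant genes 3.29% to 3.43%. The tissue label was borne out by its markers: Prox1 of dentate granule neurons stood at 64.4 to 89.7 CPM, Fibcd1 of CA1 neurons at 163 to 189.9 CPM and Cpne4 of CA3 neurons at 94.3 to 115 CPM over the 6 libraries. Choroid plexus, which lies beside the hippocampus, was unevenly included: the mean log2 CPM of its markers was 1.69 in App knock-in replicate 1, 5.07 in App knock-in replicate 2, and between 4.06 and 4.77 in the Trem2 KO libraries. App knock-in replicate 3 lay between the other control libraries. All 19 markers had a positive genotype difference, 0 of them with an unadjusted p under 0.05. The group means of the score were 3.37 in App knock-in and 4.33 in Trem2 KO. With this score as a covariate 109 of the 113 called genes remained called, the exceptions being Flt1, Timp4, Disp3 and Fbxo9. Leaving out 1 of the 6 libraries left 26 to 75 calls, and 19 of the 113 genes were called in all 6 such fits.

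Trem2 itself was measured at 10.4, 8.05 and 9.17 CPM in the App knock-in libraries and 1.85, 1.93 and 2.17 CPM in the Trem2 KO libraries. Every Trem2 KO library was below every App knock-in library, and Trem2 fell by 2.21 ± 0.13 on the log2 scale (± standard error of the fit, edgeR adjusted p = 2.84e-09). App stood at 1193, 1217 and 1197 CPM in the App knock-in libraries and 1258, 1178 and 1240.2 CPM in the Trem2 KO libraries, and these ranges overlapped (log2 fold change 0.03 ± 0.05, edgeR adjusted p = 0.897).

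Over all 19152 genes tested, 113 (0.59%) passed an adjusted p of 0.05 in the quasi-likelihood test of edgeR (adjusted by the Benjamini-Hochberg method), and these are the genes termed called. Of them 32 (0.167%) were higher and 81 (0.423%) lower in Trem2 KO. The changes were small, with a median size of 0.37 on the log2 scale, 83 genes changing by less than 0.5 and 12 by 1 or more. The median over all tested genes was 0.0028 and 50.7% of them had a positive value. In each of the 113 called genes all 3 Trem2 KO libraries lay outside the range of the 3 App knock-in libraries, but so did 3369 genes in all (17.6%: 8.65% higher and 8.94% lower), so groups without overlap are common among genes with no call. An unadjusted p under 0.05 was reached by 2151 genes (11.2%: 5.21% with a positive and 6.02% with a negative value), and DESeq2 called 259 (1.35%: 0.486% higher and 0.867% lower). Counts of list members by these measures are to be read against these shares. Of the 113 called genes, 37 belong to the 1097 tested members of the 53 gene lists used here and 76 to none. By class, the lists of RNA-binding genes had 10 calls among 210 tested genes (4.76%), neuronal lists 4 of 297 (1.35%), glial and myeloid lists 4 of 193 (2.07%) and organelle and metabolism lists 17 of 247 (6.88%). The lists were chosen with earlier results of these data known. Their shares of calls are therefore not independent evidence of where the calls concentrate.

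Genes of the RNA-binding lists moved in both directions, with 6 higher and 4 lower. Cirbp, the cold-inducible RNA-binding protein that stabilises transcripts under mild cold and takes part in clock gene expression, was measured at 44.3, 45.4 and 45.02 CPM in the App knock-in libraries and 72.3, 75.1 and 81.6 CPM in the Trem2 KO libraries. The App knock-in libraries lay close together and every Trem2 KO library was above them. Cirbp rose by 0.77 ± 0.08 on the log2 scale (edgeR adjusted p = 2.46e-05). Rbm3, its closest relative, which supports translation at synapses in the cold, was measured at 63.4, 62.9 and 61.4 CPM in the App knock-in libraries and 82.3, 90.2 and 95.7 CPM in the Trem2 KO libraries. The groups did not overlap, the Trem2 KO libraries spread more widely, and Rbm3 rose by 0.52 ± 0.07 (edgeR adjusted p = 0.00107). The 2 other cold-responsive members of that list, Rtn3 (0.02 ± 0.05) and Srsf5 (0.05 ± 0.05), were not called. Both rises remained called whichever of the 6 libraries was left out, with adjusted p up to 0.000895 for Cirbp and 0.0166 for Rbm3.

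The promoter of Cirbp holds a copy of the mild cold response element, TCCCCGCC, a sequence described from this gene. It is shown with the bases around it, from RefSeq promoter windows of 300 bases (250 before and 50 after the start of the gene, GRCm38.p6, chr10:80167589-80167615, plus strand), with the element in capitals.
Cirbp: ctgTCCCCGCCtcctagtcgctagcgg
On either strand these letters occur in 5.38% of all 32851 promoter windows, or in 6.19% of the 27025 genes with a window. Among the called genes with a window they occur in 3 of 22 that rose (Cirbp, Slc35b2 and Slc9a5) and 4 of 63 that fell (6.35%), so the match only describes this window.

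Among the hnRNP proteins, which coat nascent transcripts and steer splicing, 1 of 31 tested genes rose and 3 fell, beside a list median of 0.025. Hnrnpm was measured at 189.6, 197 and 191 CPM in the App knock-in libraries and 162, 160.4 and 152 CPM in the Trem2 KO libraries, a fall of 0.28 ± 0.05 (edgeR adjusted p = 0.0058). Hnrnpdl, which moves between nucleus and cytoplasm and binds AU-rich transcripts, was measured at 135, 139.6 and 154 CPM in the App knock-in libraries and 198, 183 and 181 CPM in the Trem2 KO libraries and rose by 0.39 ± 0.07 (edgeR adjusted p = 0.00645). The groups of both genes were fully separated, and each was called in 5 of the 6 fits that left out a library. Hnrnpc, a binder of uridine tracts at splice sites, fell by 0.22 ± 0.05, and Hnrnph3, a splicing regulator, by 0.25 ± 0.05. Hnrnpc was called in 1 and Hnrnph3 in none of those 6 fits, with adjusted p up to 0.17 and 0.156. The members with the highest counts, Hnrnpu (0.06 ± 0.05), Hnrnpk (0.10 ± 0.05) and Hnrnpa2b1 (-0.05 ± 0.05), were not called. Of all 31 members 7 had an unadjusted p under 0.05 with a positive and 4 with a negative value, so the family did not move in 1 direction.

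Among the SR proteins, which recognise exonic splicing enhancers, and the kinases that control them, 1 of 33 tested genes was called. It was Srsf10, a splicing regulator that represses splicing after heat shock, measured at 146, 153 and 154 CPM in the App knock-in libraries and 121, 125 and 115 CPM in the Trem2 KO libraries. All Trem2 KO libraries were lower, and Srsf10 fell by 0.32 ± 0.06 (edgeR adjusted p = 0.00993), a call that held in 4 of the 6 fits without a library. Tra2a (-0.24 ± 0.06), the kinase gene Clk1 (-0.23 ± 0.06) and Srsf3 (-0.16 ± 0.05) had negative values without a call. Of this list, 9 genes were lower and 1 higher without overlap between the groups, beside 8.94% and 8.65% of all genes, and the median was -0.034. In the list of 37 neuronal RNA-binding proteins (the CELF, ELAVL, RBFOX, CPEB and related families) edgeR called 0 and DESeq2 called 0, while 5 had an unadjusted p under 0.05 (beside 11.2% of all genes), and the median was -0.023. Rbfox2 had the smallest p (-0.22 ± 0.06, edgeR adjusted p = 0.109), and the abundant Celf4 (-0.03 ± 0.06) and Mbnl2 (0.01 ± 0.05) stood near 0.

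The steps after transcription gave single calls in both directions. Rbm28, a nucleolar RNA-binding protein of ribosome assembly, was measured at 63.4, 61.5 and 65.2 CPM in the App knock-in libraries and 46.7, 44.1 and 45.4 CPM in the Trem2 KO libraries. The groups were separated by a wide gap, and Rbm28 fell by 0.48 ± 0.06 (edgeR adjusted p = 0.000771). Mettl16, the methyltransferase that places m6A on U6 snRNA and on the Mat2a transcript, was measured at 50.5, 48.1 and 49.02 CPM in the App knock-in libraries and 37.3, 38.02 and 37.6 CPM in the Trem2 KO libraries and fell by 0.39 ± 0.07 (edgeR adjusted p = 0.0137). Its 3 Trem2 KO libraries lay within 1 CPM of each other. Also lower were Srrt, which links the nuclear cap-binding complex to microRNA processing (-0.36 ± 0.07), Papola, the main nuclear poly(A) polymerase (-0.24 ± 0.05), Pdcd4, an inhibitor of the helicase eIF4A (-0.31 ± 0.06), and Zcchc24, a zinc finger protein (-0.31 ± 0.05). Rbm28 and Zcchc24 were called in all 6 fits that left out a library, Mettl16 in 3, Pdcd4 in 2, Papola in 1 and Srrt in none of them (adjusted p up to 0.166).

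Higher genes of RNA metabolism outside the lists included the RNA helicase gene Ddx3x (0.22 ± 0.05), Rae1 of mRNA export (0.32 ± 0.07), Nop56 of the box C/D snoRNPs that modify ribosomal RNA (0.21 ± 0.05), Fubp3, a single-stranded nucleic acid binder (0.27 ± 0.06), and Denr, which recycles ribosomes and promotes reinitiation (0.25 ± 0.06). They were grouped by role after their values were seen. None of these 5 was called when any 1 library was left out (adjusted p up to 0.215, for Fubp3). In the list of 37 translation initiation genes only Eif2b3, a subunit of the exchange factor eIF2B, was called; it was measured at 22.1, 22.3 and 23.9 CPM in the App knock-in libraries and 31.2, 29.5 and 27.8 CPM in the Trem2 KO libraries and rose by 0.37 ± 0.08 (edgeR adjusted p = 0.0387, and 0.0717 to 0.146 without 1 library). The 42 cytosolic ribosomal protein genes had 0 calls by edgeR, 0 by DESeq2 and 0 at an unadjusted p under 0.05, with values from -0.13 to 0.26.

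Of 27 long noncoding and small RNA host genes, 2 rose and none fell, and both carry a brain microRNA. Mir22hg was measured at 33.6, 37.3 and 41.3 CPM in the App knock-in libraries and 57.3, 53.3 and 53.1 CPM in the Trem2 KO libraries and rose by 0.54 ± 0.08 (edgeR adjusted p = 0.00113, called in all 6 fits that left out a library). Mir9-3hg was measured at 17.5, 17.9 and 18.6 CPM in the App knock-in libraries and 24.5, 29.01 and 31.2 CPM in the Trem2 KO libraries and rose by 0.65 ± 0.11 (edgeR adjusted p = 0.00861, called in 3 of those 6 fits). The Trem2 KO libraries were above the App knock-in libraries in both. The mature microRNAs of these hosts are shown with the seed (bases 2 to 8, which pair with targets) in capitals, from RefSeq (GRCm38.p6).
miR-22-5p, chr11:75463734-75463755, plus strand: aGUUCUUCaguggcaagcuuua
miR-22-3p, chr11:75463772-75463793, plus strand: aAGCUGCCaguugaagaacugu
miR-9-5p, chr7:79505279-79505301, plus strand: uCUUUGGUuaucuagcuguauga
miR-9-3p, chr7:79505318-79505339, plus strand: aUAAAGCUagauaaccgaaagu
The 4 seeds differ, so the hosts do not share a seed family. The libraries counted host transcripts and not mature microRNAs. The abundant noncoding transcripts Meg3 (-0.10 ± 0.07), Snhg11 (-0.07 ± 0.06) and Malat1 (0.01 ± 0.14) were not called.

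**Figure D1:**
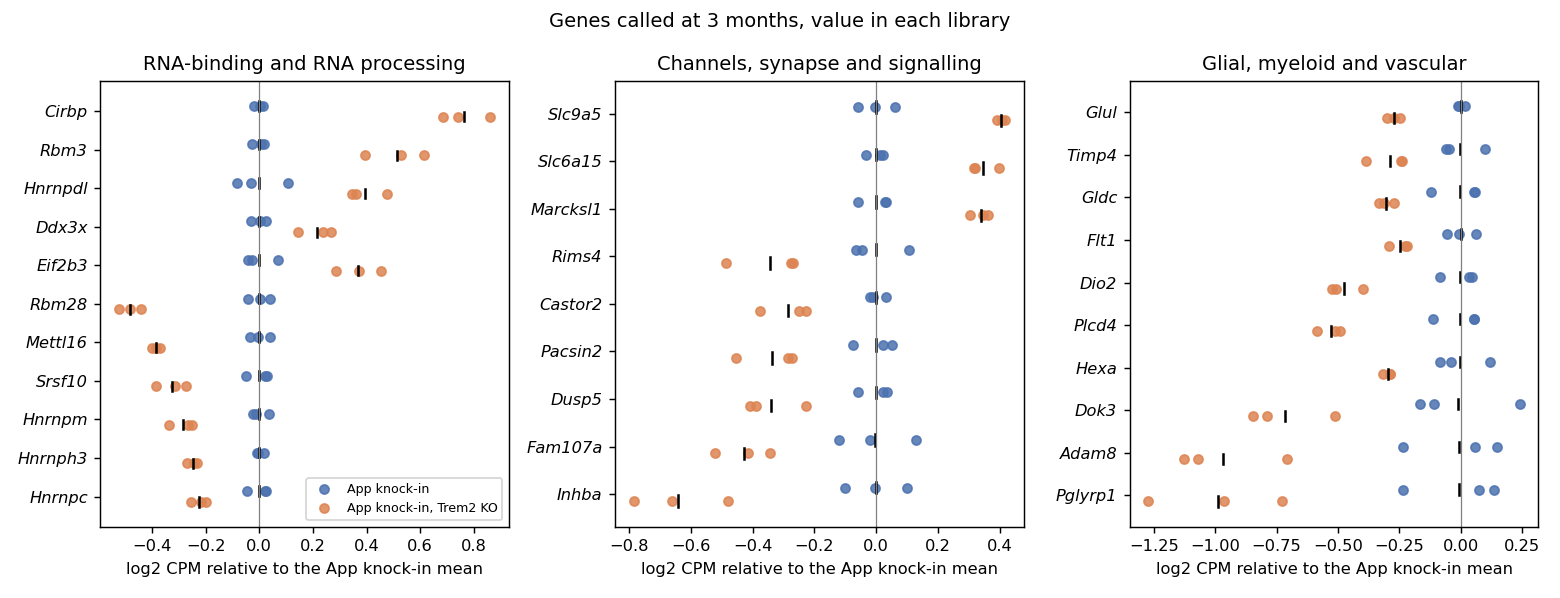
Each point is 1 library at 3 months, plotted as log2 CPM minus the App knock-in mean of that gene, for called genes of RNA metabolism (left), of channels, synapse and signalling (middle) and of glia, myeloid cells and vessels (right); black ticks are group means. In every gene shown the Trem2 KO points lie outside the App knock-in points, with Cirbp farthest to the right and Adam8 and Pglyrp1 farthest to the left.

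Few neuronal genes were called at 3 months. In the 297 tested genes of the 13 neuronal lists 1 rose and 3 fell, a share of calls of 1.35% beside 0.59% over all genes. The pan-neuronal markers had values from -0.12 to 0.08, with 0 called by edgeR and DESeq2, 2 with an unadjusted p under 0.05, and overlapping scores (mean log2 CPM of the list in each library) of 8.45 to 8.53 in App knock-in and 8.49 to 8.52 in Trem2 KO. Scores without overlap occurred in lists of several classes, so they are not particular to the lists where they are given below. Examples are translation initiation (6.22 to 6.28 against 6.290 to 6.291) and polyamine and methionine metabolism (6.23 to 6.25 against 6.10 to 6.16). In bulk tissue fewer cells of a type and less RNA per cell cannot be told apart, which holds for every cell type list below.

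Genes that neurons switch on with activity, and neuropeptides, had the most negative medians among the neuronal lists. Of 24 immediate early genes edgeR called 1 lower and none higher, 8 had an unadjusted p under 0.05, all with a negative value (beside 6.02% of all genes), and DESeq2 called 5 lower (beside 0.867%). The list median was -0.14, with 19 of 24 values negative. Dusp5, a nuclear phosphatase that switches off ERK, was measured at 41.1, 43.4 and 43.9 CPM in the App knock-in libraries and 32.3, 36.6 and 32.7 CPM in the Trem2 KO libraries and fell by 0.34 ± 0.07 (edgeR adjusted p = 0.0422). Its groups were separate, but the call was lost whichever of the 6 libraries was left out (adjusted p 0.0577 to 0.222). Homer1 (-0.27 ± 0.07), Fosl2 (-0.36 ± 0.10) and Egr2 (-1.01 ± 0.30) were also lower without overlap and were not called. The classic members Arc (-0.38 ± 0.23), Fos (-0.42 ± 0.25) and Egr1 (-0.13 ± 0.16) overlapped between groups. Arc was measured at 213, 210.3 and 153 CPM in the App knock-in libraries and 133, 172 and 138 CPM in the Trem2 KO libraries, with App knock-in replicate 3 below the highest Trem2 KO library. The score of the list lay at 5.29 to 5.48 in App knock-in and 5.16 to 5.28 in Trem2 KO, and App knock-in replicate 3 and Trem2 KO replicate 2 nearly met.

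Of 34 late activity-regulated genes of secretion and signalling, 1 fell and none rose, with a median of -0.115. It was Inhba, the subunit that forms activin A, measured at 14.8, 13.8 and 12.9 CPM in the App knock-in libraries and 9.94, 8.04 and 8.77 CPM in the Trem2 KO libraries. All Trem2 KO libraries were lower, and Inhba fell by 0.64 ± 0.12 (edgeR adjusted p = 0.0175, called in 2 of the 6 fits that left out a library). Nfil3 (-0.59 ± 0.16), Tac1 (-0.40 ± 0.12) and Scg2 (-0.16 ± 0.05) lay lower without overlap and without a call. Neuropeptides and their receptors had 0 calls by edgeR and by DESeq2 among 27 genes and 2 with an unadjusted p under 0.05. Their median was -0.15 with 21 of 27 values negative, and the scores did not overlap (4.02 to 4.06 against 3.87 to 3.95). Cck (-0.06 ± 0.16) and Sst (-0.09 ± 0.14) had high counts and values near 0.

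The genes of synaptic transmission had medians between -0.01 and 0.05. Among 28 glutamate receptor genes, 18 GABA and glycine receptor genes, 36 presynaptic genes and 30 postsynaptic scaffold and kinase genes edgeR called 0, and 4, 5, 5 and 7 of them had an unadjusted p under 0.05. DESeq2 called 0 in the first 3 of these lists and 1 in the last. The AMPA receptor subunit genes Gria2 (0.04 ± 0.05) and Gria1 (0.06 ± 0.06), and Snap25 (0.04 ± 0.05) and Camk2a (-0.01 ± 0.06) of the synapse, had values between -0.01 and 0.06. The smallest p in these lists belonged to the scaffold gene Dlg1, measured at 144, 136 and 125 CPM in the App knock-in libraries and 122, 109.5 and 114 CPM in the Trem2 KO libraries (-0.23 ± 0.06, edgeR adjusted p = 0.0613). The extrasynaptic GABA receptor subunits Gabra5 (0.20 ± 0.06) and Gabra4 (0.17 ± 0.05) were higher without overlap and were not called.

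Among 40 voltage-gated channels and exchangers 1 gene rose and 1 fell, and the median was 0.012. Slc9a5, a sodium-proton exchanger of neurons, was measured at 15.8, 16.4 and 17.1 CPM in the App knock-in libraries and 21.5, 21.8 and 21.9 CPM in the Trem2 KO libraries and rose by 0.40 ± 0.08 (edgeR adjusted p = 0.0267). The Trem2 KO libraries of Slc9a5 lay within 1 CPM of each other, above all App knock-in libraries. The call was lost whichever library was left out (adjusted p up to 0.133).

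Other called genes with known roles in neurons lie outside the lists. Slc6a15, a neuronal transporter of branched-chain amino acids and proline, was measured at 99.02, 95.8 and 99.5 CPM in the App knock-in libraries and 129, 122 and 122 CPM in the Trem2 KO libraries and rose by 0.34 ± 0.05 (edgeR adjusted p = 0.00185). Marcksl1, an actin-binding protein of growing neurites, was measured at 116, 123 and 123 CPM in the App knock-in libraries and 149, 155 and 153 CPM in the Trem2 KO libraries and rose by 0.34 ± 0.05 (edgeR adjusted p = 0.00534). Both were separated between the groups. Armcx5, of an X-linked family of armadillo-repeat proteins, rose by 0.50 ± 0.07, and Fam107a, an actin-associated protein induced by stress, fell by 0.42 ± 0.07. These 4 genes were called in all 6 fits that left out a library. Rims4, a regulator of vesicle release, fell by 0.34 ± 0.07, Pacsin2, a membrane-bending adaptor, by 0.33 ± 0.06, and Castor2, of the arginine-sensing arm of mTORC1 control, by 0.28 ± 0.06. The last 3 were called in 2, 1 and 0 of those fits.

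The neuron types of the hippocampus gave no call. Dentate granule, CA1, CA3 and CA2 pyramidal, inhibitory neuron and neurogenesis lists had 0 calls by edgeR among 14, 10, 12, 20 and 17 genes, with 1, 2, 1, 3 and 1 at an unadjusted p under 0.05, and DESeq2 called 1 gene in the CA1 list and 0 in the others. The medians were 0.016, 0.025, 0.11, -0.062 and 0.085. Among the neuronal lists, the glutamate receptor, GABA and glycine receptor, presynaptic, channel, dentate granule and CA1 medians turned sign when 1 library was left out. Calb1 (0.00 ± 0.06) and Gad1 (-0.07 ± 0.05), abundant markers of granule and inhibitory neurons, were near 0.

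Astrocytes support synapses by clearing glutamate and buffering potassium, and become reactive near plaques. Of 28 homeostatic astrocyte genes 1 fell, with a median of -0.075 and 21 values negative. It was Glul, glutamine synthetase, which turns glutamate into glutamine, measured at 178, 179 and 182 CPM in the App knock-in libraries and 146, 149 and 151 CPM in the Trem2 KO libraries. The groups were tight and separate, Glul fell by 0.27 ± 0.06 (edgeR adjusted p = 0.0336), and the call was lost whichever library was left out (adjusted p 0.0787 to 0.125). The tight-junction gene Cldn10 (-0.29 ± 0.07) and the connexin gene Gjb6 (-0.38 ± 0.09) were lower without overlap and not called by edgeR. The glutamate transporter gene Slc1a3 (-0.10 ± 0.06) and Aldoc (-0.11 ± 0.06) were among the abundant members without a call. Scores of the list overlapped slightly, at 7.202 to 7.28 in App knock-in and 7.15 to 7.205 in Trem2 KO.

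Of 26 reactive astrocyte genes edgeR called 0, DESeq2 called 1 higher, and 3 had an unadjusted p under 0.05. Gfap, the intermediate filament that marks reactive astrocytes, stood at 525, 464 and 515 CPM in the App knock-in libraries and 496, 487 and 486 CPM in the Trem2 KO libraries, with full overlap (-0.03 ± 0.05). Outside the lists, further called genes have known expression in astrocytes, though not only there. Dio2, the deiodinase that makes active thyroid hormone in the brain, was measured at 49.2, 48.8 and 44.9 CPM in the App knock-in libraries and 36.2, 33.1 and 33.4 CPM in the Trem2 KO libraries and fell by 0.48 ± 0.07 (edgeR adjusted p = 0.00164). Plcd4, a phospholipase C, was measured at 34.2, 34.3 and 30.5 CPM in the App knock-in libraries and 23.2, 23.5 and 22.02 CPM in the Trem2 KO libraries and fell by 0.53 ± 0.07 (edgeR adjusted p = 0.00113). Both were separate between the groups. Crot, which acts on the shortened acyl chains of peroxisomal fatty acid oxidation, fell by 0.38 ± 0.06. These 3 calls held whichever library was left out. The metalloproteinase inhibitor gene Timp4 fell by 0.29 ± 0.07 and the growth factor responsive transcription factor gene Etv5 by 0.32 ± 0.06; they were called in 0 and 4 of the 6 fits that left out a library.

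In the lists of microglia and other myeloid cells, the calls were 3 genes, and bulk tissue does not show which cells expressed them. Dok3, an adaptor that damps immune receptor signalling, was measured at 10.8, 14.3 and 11.2 CPM in the App knock-in libraries and 6.72, 6.99 and 8.48 CPM in the Trem2 KO libraries and fell by 0.70 ± 0.13 (edgeR adjusted p = 0.0158). Adam8, a membrane metalloprotease of leukocytes that is also in the plaque-associated list, was measured at 7.09, 9.25 and 8.68 CPM in the App knock-in libraries and 3.97, 3.82 and 5.11 CPM in the Trem2 KO libraries and fell by 0.95 ± 0.18 (edgeR adjusted p = 0.0164). Pglyrp1, a peptidoglycan-binding protein of phagocyte granules, was measured at 5.75, 5.99 and 4.63 CPM in the App knock-in libraries and 2.26, 3.30 and 2.79 CPM in the Trem2 KO libraries and fell by 0.95 ± 0.20 (edgeR adjusted p = 0.0312). All 3 were separate between the groups at levels under 15 CPM, and were called in 3, 2 and 1 of the 6 fits that left out a library. They are the 3 calls among 23 myeloid adaptors and receptors, whose median was -0.32 with 17 values negative, and whose scores did not overlap (2.14 to 2.29 against 1.90 to 1.96).

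The pan-microglial list had 0 calls by edgeR and by DESeq2 among 22 genes and a median of -0.11. In it 5 genes had an unadjusted p under 0.05, all with a negative value (beside 6.02% of all genes). Of its 22 values 18 were negative, and its scores did not overlap (3.97 to 4.02 against 3.87 to 3.91). C1qa, a complement subunit made by microglia, was measured at 29.5, 33.1 and 30.4 CPM in the App knock-in libraries and 24.1, 24.9 and 28.8 CPM in the Trem2 KO libraries (-0.25 ± 0.08), and Tyrobp, the TREM2 adaptor, at 7.50, 6.51 and 7.12 CPM in the App knock-in libraries and 5.48, 5.23 and 5.93 CPM in the Trem2 KO libraries (-0.35 ± 0.15). Both were lower in every Trem2 KO library without a call. Homeostatic microglial genes had 0 calls by edgeR and DESeq2 among 18, with 2 at an unadjusted p under 0.05, and the fractalkine receptor gene Cx3cr1 had -0.13 ± 0.07 and the surface marker gene Tmem119 -0.24 ± 0.07. Of 25 plaque-associated genes edgeR called 1 lower (Adam8) and none higher, and DESeq2 called 1 lower and 1 higher. An unadjusted p under 0.05 was reached by 6 of them, 3 with a positive and 3 with a negative value. Of the 25 values 16 were negative, the median was -0.084, and the scores did not overlap (2.79 to 2.95 against 2.57 to 2.696). A member with a positive value was Lpl, a lipoprotein lipase, measured at 36.8, 41.8 and 46.3 CPM in the App knock-in libraries and 55.7, 50.8 and 48.8 CPM in the Trem2 KO libraries (0.31 ± 0.08, edgeR adjusted p = 0.0813), higher without overlap, while Clec7a stood at 0.408, 0.285 and 0.439 CPM in the App knock-in libraries and 0.274, 0.0879 and 0.0964 CPM in the Trem2 KO libraries, close to the level of 3 reads. Complement genes had 0 calls by edgeR and DESeq2 among 17, 5 with an unadjusted p under 0.05 and a median of -0.18. The lysosomal list had 1 lower gene of 35, Hexa, a subunit of β-hexosaminidase that degrades GM2 ganglioside, measured at 73.8, 76.3 and 85.1 CPM in the App knock-in libraries and 64.3, 64.3 and 62.9 CPM in the Trem2 KO libraries (-0.30 ± 0.07, edgeR adjusted p = 0.0424), which was called in 1 of those 6 fits.

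Oligodendrocyte lists had 0 calls by edgeR and by DESeq2: 30 myelinating genes had a median of 0.023 with 2 at an unadjusted p under 0.05, and 14 precursor genes -0.040, also with 2. Mbp, which encodes a main myelin protein, was not called (0.00 ± 0.13). Of 18 endothelial genes Flt1, the VEGF receptor 1, fell by 0.25 ± 0.06 (edgeR adjusted p = 0.0454), from 61.4, 58.5 and 56.6 CPM to 50.2, 50.6 and 48.00 CPM. Flt1 was called in 0 of the 6 fits that left out a library and in 3 of the 5 other alternatives. Mural, fibroblast, border macrophage, T and NK cell, erythroid and choroid plexus markers had 0 calls by edgeR, and 1, 1, 3, 0, 0 and 0 at an unadjusted p under 0.05. DESeq2 called 1 border macrophage gene and 0 in the others.

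**Figure D2:**
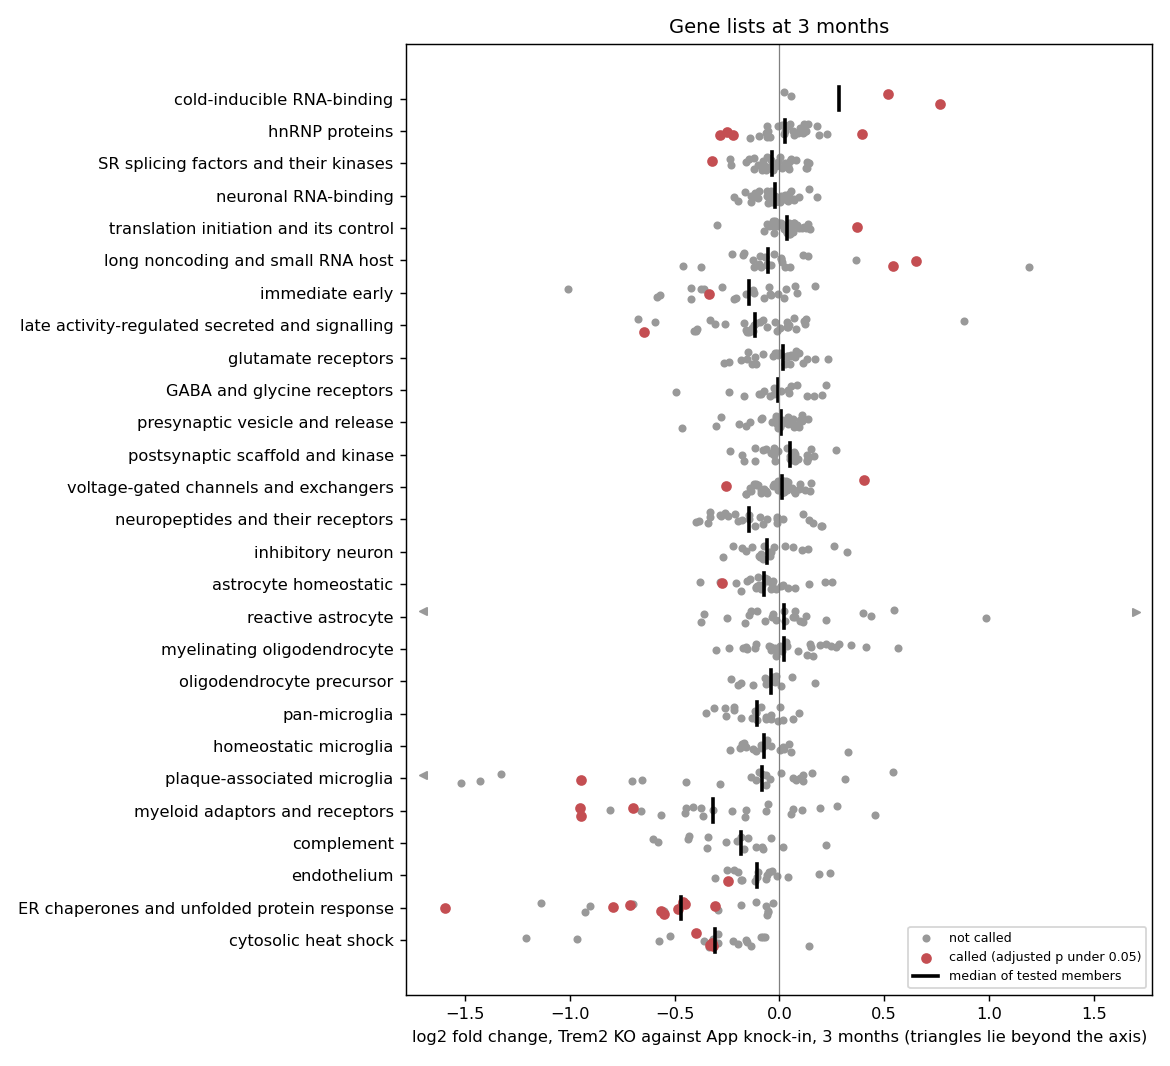
Log2 fold change (Trem2 KO against App knock-in, 3 months) of each tested member of 27 gene lists; red points passed the adjusted p of 0.05, grey ones did not, black bars are list medians and triangles mark values beyond the axis. Red points lie on both sides of 0 in the RNA-binding lists and on the left in the endoplasmic reticulum, heat shock and myeloid lists.

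Of all lists, the most calls fell to protein folding in the endoplasmic reticulum (ER), where secreted and membrane proteins are folded, glycosylated and checked. Of 23 tested members 9 fell, all 23 values were negative, 18 were lower without overlap beside 8.94% of all genes, and the median was -0.47. The list was already known to be lower in these samples when it was drawn up, so its count is not independent evidence of a direction. The score of the list was 6.92, 7.17 and 7.04 in the App knock-in libraries and 6.56, 6.57 and 6.52 in the Trem2 KO libraries. Xbp1, the transcription factor that is spliced by IRE1 in ER stress, was measured at 202, 226 and 216 CPM in the App knock-in libraries and 151, 155 and 155 CPM in the Trem2 KO libraries and fell by 0.48 ± 0.07 (edgeR adjusted p = 0.00408). Hspa5, the main ER chaperone BiP, was measured at 837, 1094 and 939.9 CPM in the App knock-in libraries and 533, 536 and 467 CPM in the Trem2 KO libraries. Its groups were far apart, yet edgeR did not call it (-0.90 ± 0.16, adjusted p = 0.0584), while DESeq2 gave an adjusted p of 6.21e-05. Of the 9 called members Xbp1, Calr and Pdia6 were called in all 6 fits that left out a library, Creld2 in 5, Derl3 in 4, Hyou1 in 3, and Dnajb11, Hsp90b1 and Sel1l in 1. Pdia3 was close to the threshold too (-0.55 ± 0.11, edgeR adjusted p = 0.0515).

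Called ER genes outside that list extend to glycoprotein quality control and collagen processing. Mlec, malectin, which binds glucosylated glycans, was measured at 131, 145 and 129.7 CPM in the App knock-in libraries and 103, 107 and 105 CPM in the Trem2 KO libraries and fell by 0.37 ± 0.06 (edgeR adjusted p = 0.00283). Uggt1, the glucosyltransferase that senses unfolded glycoproteins, was measured at 60.98, 59.4 and 59.4 CPM in the App knock-in libraries and 45.4, 45.8 and 45.4 CPM in the Trem2 KO libraries and fell by 0.40 ± 0.08 (edgeR adjusted p = 0.0164). Each group of Uggt1 was tight, and the groups were separate. Mlec was called in all 6 fits that left out a library and Uggt1 in 1. Magt1, of the oligosaccharyltransferase (-0.42 ± 0.09), the cargo lectin gene Lman2l (-0.28 ± 0.06), the lysyl hydroxylase gene Plod1 (-0.45 ± 0.08) and the disulfide isomerase-like gene Creld1 (-0.34 ± 0.07) were lower as well, with calls in 2, 1, 3 and 1 of those fits. Alg2, a mannosyltransferase that builds the N-glycan precursor, went the other way (0.21 ± 0.05, edgeR adjusted p = 0.0415, called in none of those fits). These genes were grouped after their values were seen.

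The ER stress response element (ERSE), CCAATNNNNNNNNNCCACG, is the site through which ATF6 and XBP1 are known to act, and it was found in the RefSeq promoter windows of 5 of the 8 called ER genes with a window: Calr, Pdia6, Creld2, Derl3 and Hsp90b1. Stretches of 51 bases around the element are shown 5′ to 3′ on the strand of the gene (GRCm38.p6), with the fixed bases of the element in capitals; where these read CGTGG and ATTGG the element lies on the opposite strand.
Calr, chr8:84847059-84847109, minus strand: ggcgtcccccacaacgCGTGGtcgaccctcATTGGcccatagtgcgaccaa
Pdia6, chr12:17266475-17266525, plus strand: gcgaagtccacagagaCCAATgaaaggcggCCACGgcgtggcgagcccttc
Creld2, chr15:88819504-88819554, plus strand: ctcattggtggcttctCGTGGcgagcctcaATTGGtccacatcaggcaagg
Derl3, chr10:75893226-75893276, plus strand: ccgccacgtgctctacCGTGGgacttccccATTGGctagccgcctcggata
Hsp90b1, chr10:86705622-86705672, minus strand: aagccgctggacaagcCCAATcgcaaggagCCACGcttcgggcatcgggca
Hsp90b1, chr10:86705517-86705567, minus strand: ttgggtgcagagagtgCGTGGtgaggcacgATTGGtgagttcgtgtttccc
The element occurs in 39 of 32851 windows (0.119%) and in 37 of 27025 genes. Of these genes 10 are among the 21 members of the ER list with a window (47.6%), beside 62.5% of the called members. It is thus common in the list as a whole. The 21 members include the 8 called ones, and numbers this small do not show whether the element singles out the called genes. Of the genes with it, 20 were tested. The 9 in the ER list had a median of -0.56 with 5 called lower, and the 11 outside it a median of -0.026 with 0 called by edgeR, 1 lower without overlap (Alg12, -0.28, named after its value was seen) and 6 negative values. None of the 22 called higher genes with a window held it. The heat shock element GAANNTTCNNGAA (0.603% of windows) was in no window of a called gene, and the cAMP response element TGACGTCA (1.79%) was in those of Mir9-3hg, which rose, and of Dio2, Flt1 and Mkks, which fell.

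In the cytosol, 4 of 22 heat shock genes fell and none rose: Hspa8 of the constitutive HSP70 (-0.32 ± 0.06) and the HSP90 cochaperone genes Stip1 (-0.40 ± 0.08), Fkbp4 (-0.33 ± 0.07) and Ahsa1 (-0.32 ± 0.06). The list median was -0.31, 16 members were lower without overlap beside 8.94% of all genes, and Hsp90ab1 (-0.16 ± 0.06) and Hsp90aa1 (-0.16 ± 0.08) were not called. The heat shock list was also chosen with earlier results of these data known, so its counts are not independent evidence of a direction. Hspa8 was measured at 2330.2, 2485 and 2504 CPM in the App knock-in libraries and 1946, 1993 and 1922 CPM in the Trem2 KO libraries. All Trem2 KO libraries were lower, and App knock-in replicate 1 was the lowest control library, as it was for the score of the ER list. Each of the 4 was called in 1 of the 6 fits that left out a library, with adjusted p up to 0.099, 0.166, 0.122 and 0.123. The integrated stress response list, a neighbouring arm driven by ATF4, had 0 calls by edgeR among 22 genes, 1 by DESeq2 and 4 with an unadjusted p under 0.05, and a median of -0.021.

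**Figure D3:**
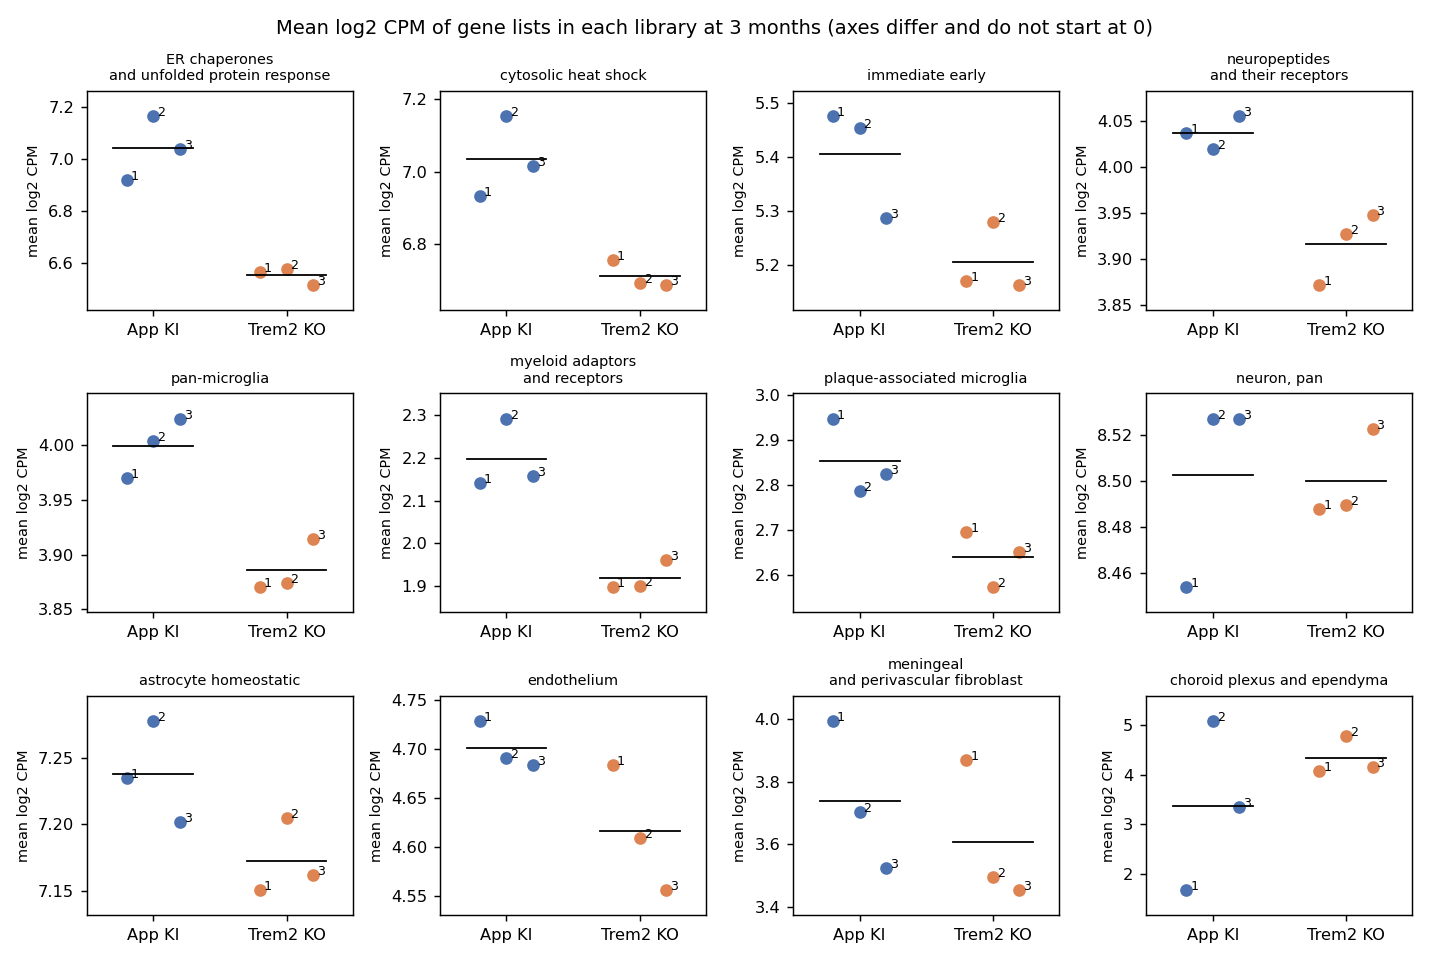
Mean log2 CPM of 12 gene lists in each library at 3 months (numbers are replicate numbers, lines are group means; each panel has its own axis that does not start at 0). The ER score is 6.92 to 7.17 in App knock-in and at most 6.57 in Trem2 KO, pan-neuronal scores overlap, and App knock-in replicate 1 is lowest for choroid plexus.

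Metabolic lists gave few calls. Among 19 genes of lipoate and mitochondrial dehydrogenases 1 rose and 1 fell, and the median was 0.065. Lias, the mitochondrial lipoic acid synthase, was measured at 37.1, 36.2 and 38.4 CPM in the App knock-in libraries and 47.2, 52.4 and 47.8 CPM in the Trem2 KO libraries and rose by 0.40 ± 0.07 (edgeR adjusted p = 0.00734, called in 4 of the 6 fits that left out a library). Gldc of glycine breakdown, which is known to be strong in astrocytes, was measured at 87.5, 87.2 and 77.2 CPM in the App knock-in libraries and 66.7, 67.6 and 69.6 CPM in the Trem2 KO libraries and fell by 0.30 ± 0.07 (edgeR adjusted p = 0.0454, called in 1 of those fits). The groups of both genes were separate. Outside the lists Pdp1, the phosphatase that activates pyruvate dehydrogenase, an enzyme that carries lipoic acid, fell by 0.28 ± 0.05 (2 of those fits). Among 36 nuclear genes of the respiratory chain edgeR called 0, DESeq2 called 1, 2 had an unadjusted p under 0.05, and 11 were higher without overlap beside 8.65% of all genes, with values of -0.05 to 0.16. The 12 mitochondrially encoded genes had 0 calls by edgeR and DESeq2 and 0 at an unadjusted p under 0.05. Amd2, a copy of S-adenosylmethionine decarboxylase, was measured at 11.6, 10.3 and 11.02 CPM in the App knock-in libraries and 2.12, 1.67 and 0.916 CPM in the Trem2 KO libraries (-2.84 ± 0.20, edgeR adjusted p = 7.94e-08). Amd1, its near-identical relative, was at -0.07 ± 0.05 and was not called, and since reads of the pair can be divided between them the value of Amd2 is uncertain. The same holds for the class I genes H2-Q6 (2.72 ± 0.44) and H2-Q5 (2.79 ± 0.57), whose highest App knock-in levels were 0.439 and 0.171 CPM. In the list of 16 class I presentation genes, which holds H2-Q6, edgeR called 1 higher, DESeq2 called 3 higher and neither called any lower. Of its values 13 were positive, with a median of 0.20. Without overlap 6 members were higher and 0 lower, beside 8.65% and 8.94% of all genes. The scores did not overlap (2.36 to 2.52 against 2.64 to 2.93). They include H2-Q6 and also H2-Q7 (1.86 ± 0.50), which DESeq2 called and edgeR did not. H2-Q7 was at most 0.530 CPM in the App knock-in libraries. At 9 months the median of the class I list was -0.087, with 9 of 16 values negative and 0 called by edgeR. Amd2 was called in 6, H2-Q6 in 5 and H2-Q5 in 0 of the 6 fits that left out a library. Circadian clock genes had 0 calls by edgeR among 21, 4 by DESeq2 (beside 1.35% of all genes) and 9 with an unadjusted p under 0.05 (beside 11.2%). Of their values 17 were negative, with a median of -0.074. Without overlap 3 members were higher and 7 lower, beside 8.65% and 8.94% of all genes. Their scores did not overlap (5.98 to 6.03 against 5.91 to 5.95). Per3 (-0.28 ± 0.07) and Nr1d1 (0.26 ± 0.07) lay on opposite sides of 0, and the hour of collection is not given in the sources used here.

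At 9 months, in other mice of both genotypes, 398 genes were called (2.08%: 0.684% higher and 1.39% lower). Apart from Trem2, 107 of the 112 genes called at 3 months had the same sign at 9 months, beside 61.7% of all tested genes. Of the 113 called at 3 months, 45 were also called at 9 months in the same direction, which is 39.8% of the 3-month and 11.3% of the 9-month calls. The ages share no library, but they share whatever else separates the 2 genotypes.

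Of the 10 called genes of the RNA-binding lists, 5 were also called at 9 months, as was Rbm28. At 9 months Cirbp was measured at 42.4, 42.4 and 33.1 CPM with Trem2 and 64.1, 66.03 and 71.6 CPM without it (log2 fold change 0.77 ± 0.08), Rbm3 had 0.48 ± 0.07, Rbm28 -0.48 ± 0.06, Hnrnpm -0.29 ± 0.05, Hnrnpc -0.27 ± 0.05 and Eif2b3 0.40 ± 0.08, each called at both ages. For these 6 genes the test of the difference between the ages gave edgeR adjusted p of 0.991 or more. Mir22hg (0.28 ± 0.08), Mir9-3hg (0.41 ± 0.11), Hnrnpdl (0.23 ± 0.07) and Srsf10 (-0.19 ± 0.06) had the same sign without a call at 9 months. Of the neuronal genes, Rims4 (-0.39 ± 0.07), Castor2 (-0.28 ± 0.06), Slc6a15 (0.29 ± 0.05) and Marcksl1 (0.25 ± 0.06) were called at both ages.

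Inhba and Pglyrp1 were called lower at 3 months and had overlapping groups at 9 months. At 9 months Inhba was measured at 13.8, 12.7 and 14.96 CPM with Trem2 and 13.6, 15.9 and 11.7 CPM without it, and Pglyrp1 at 3.48, 3.59 and 3.61 CPM and 5.16, 2.97 and 3.61 CPM. The difference between the ages did not pass the test for either gene (0.64 ± 0.17, edgeR adjusted p = 0.227, and 1.09 ± 0.28, edgeR adjusted p = 0.186). Flt1 (0.01 ± 0.06) and Gldc (-0.06 ± 0.07) were also near 0 at 9 months, with no called difference (edgeR adjusted p = 0.373 and 0.642). Hexa was called at both ages, its 9-month levels being 142, 137 and 136 CPM with Trem2 and 90.6, 100.1 and 82.9 CPM without it (-0.60 ± 0.06), and had no called difference between the ages (edgeR adjusted p = 0.353). Dok3 (-0.25 ± 0.13) and Adam8 (-0.57 ± 0.18) kept their sign at 9 months without a call (edgeR adjusted p = 0.428 and 0.108). From 3 to 9 months the App knock-in mean of Trem2 went from 9.19 to 52.7 CPM. Those of Dok3, Adam8 and Pglyrp1 went from 12.1 to 9.69, 8.34 to 8.45 and 5.46 to 3.56 CPM. Whether microglia are the source of these 3 transcripts was not tested.

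For several microglial genes without a call at 3 months, the genotype difference itself differed between the ages. Of the 22 pan-microglial genes 19 were lower at 9 months and 13 had a called difference between the ages, beside 0.266% of all genes. C1qa had -0.25 ± 0.08 at 3 and -0.86 ± 0.07 at 9 months (difference -0.60 ± 0.11, edgeR adjusted p = 0.0143), and Tyrobp -0.35 ± 0.15 and -1.38 ± 0.13 (edgeR adjusted p = 0.0247). The values of Lpl and Gpnmb lay on opposite sides of 0 at the 2 ages: Lpl had 0.31 ± 0.08 at 3 and -0.46 ± 0.08 at 9 months (edgeR adjusted p of the difference = 0.00138), and Gpnmb 0.54 ± 0.16 and -0.95 ± 0.14 (edgeR adjusted p = 0.00127). Neither was called at 3 months. Gfap of astrocytes had -0.03 ± 0.05 at 3 and -0.39 ± 0.05 at 9 months, a called difference (edgeR adjusted p = 0.0409). In contrast, none of the genes in the RNA-binding and ER lists had a called difference between the ages by edgeR, which does not show that the values are equal. The median of the ER list was -0.47 at 3 and -0.27 at 9 months, with 9 and 7 genes called lower. Xbp1 (-0.21 ± 0.07) and Dnajb11 (-0.27 ± 0.08) were not called at 9 months.

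**Figure D4:**
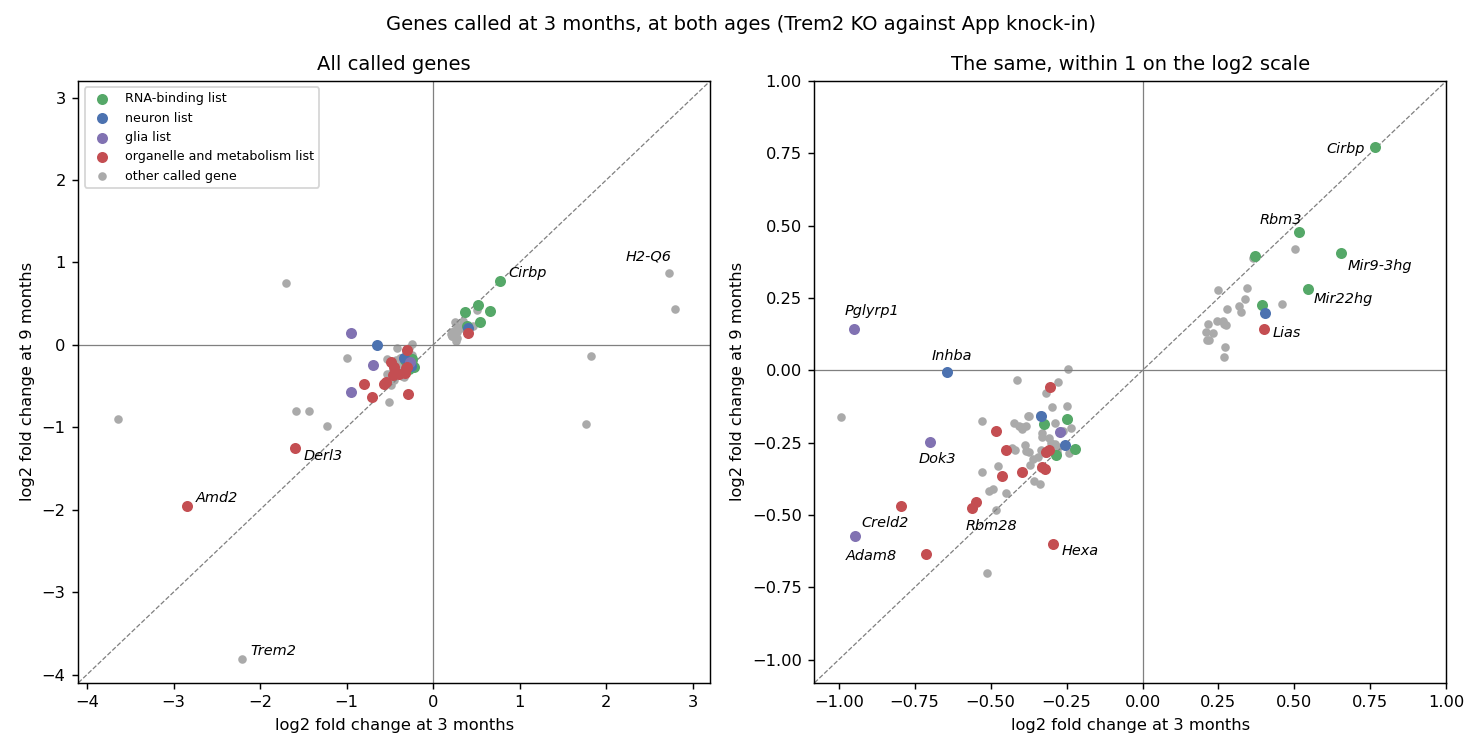
Log2 fold change of Trem2 KO against App knock-in at 3 months (horizontal) and at 9 months (vertical) for the 113 genes called at 3 months, all of them on the left and those within 1 of 0 on the right; the dashed line marks equal values. Cirbp and Rbm3 lie near the line, Inhba and Pglyrp1 lie at 9-month values of -0.01 and 0.14, and Trem2 and Hexa lie below the line.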

How the data were processed

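RNA was total RNA of mouse hippocampus, extracted on columns, and libraries were made with the SMART-Seq mRNA LP kit, per the labels' protocols; for RNA integrity and for the strand setting of the counting, no value is given in the sources used here. The values are raw gene counts as deposited by the authors; STAR 2.7.10a, featureCounts 2.0.3, R 4.2.0, DESeq2 1.36.0 and the build GRCm39 are named in the submitters' processing notes, and the annotation release is not given there. Of 56980 identifiers in the count table, 38139 had at least 1 read. Symbols were matched for 52073 identifiers through a names table of an earlier annotation, and the 4907 unmatched ones hold up to 0.252% of a library's reads.

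Libraries at 3 months held 14627892 to 24594655 counts, which sets the precision of low genes, and the limit given for a gene with 0 reads covers counting error only. Genes with low counts were removed with filterByExpr (minimum count 10, minimum total 15), which left 19152 genes. edgeR 4.0.16 (R 4.3.3, limma 3.58.1) was run with TMM scaling and the robust quasi-likelihood test, with 1 term for each of the 4 groups over all 12 libraries (8 residual degrees of freedom). P-values were adjusted by the Benjamini-Hochberg method across the 19152 genes, and a gene is called at an adjusted p under 0.05. Standard errors were derived from the fitted coefficient and its F statistic. CPM are counts scaled by the TMM-adjusted library size, and list scores are mean log2 CPM with a prior count of 2. DESeq2 1.42.0 served as an alternative. The script was tested on simulated data.

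Each library carries its own mouse identifier, and p-values measure the spread between these libraries; all pairs of libraries of a group differed by more than sampling noise (chi-square per degree of freedom 3.041 or more). The genes named are Trem2 and App, called genes, and for each list its 4 members of lowest p and 3 abundant members without a call at most. Amd1, Clec7a, Cx3cr1, Egr2, Fos, Prox1 and Tyrobp lie outside this rule and were chosen after their values were seen, and transcripts without a proper symbol are not described outside the closing section. The comparison, the 53 gene lists and the tests were chosen with earlier results of these data known. Alternatives were another scaling, no filter, DESeq2, only the 6 libraries at 3 months, the choroid plexus score as a covariate, and leaving out each of the 6 libraries. Promoter and microRNA sequences come from RefSeq tables (GRCm38.p6) and were matched by symbol; no coordinates were converted between builds. A few genes are not reported here by name. Protein sequences and mature microRNA levels were not analysed here.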

Additional observations from a re-analysis of the deposited data

Results flagged for a closer look

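In 4 genes called at 3 months the genotype difference itself differed between the ages, by edgeR's test of that difference, adjusted over all tested genes. Trem2 fell further at 9 months than at 3 months, by an additional log2 difference of -1.61 (adjusted p = 7.96e-05); App knock-in libraries held 10.4, 8.05 and 9.17 CPM at 3 months and 55.6, 52.6 and 49.8 CPM at 9 months, and Trem2 KO libraries 1.85, 1.93 and 2.17 CPM and 3.62, 3.83 and 3.77 CPM. ENSMUSG00000095041, a transcript with no symbol in the names table, had a difference between the ages of 0.833 (adjusted p = 0.000581). It was measured at 3 months at 376, 375 and 352 CPM in the App knock-in libraries and 193, 183 and 179 CPM in the Trem2 KO libraries, and the fall of 0.99 ± 0.07 was called in all 6 fits that left out a library. At 9 months the levels were 422, 471 and 419 CPM and 349, 442 and 383 CPM, and these ranges overlapped.

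The predicted genes Gm42047 and Gm16299 had values of opposite sign at the 2 ages, at levels of 5.2 CPM and below. Gm42047 was higher in Trem2 KO at 3 months (1.77 ± 0.33) and lower at 9 months (-0.96 ± 0.33), a difference of -2.73 (adjusted p = 0.0149). Gm16299 was lower at 3 months (-1.70 ± 0.36) and higher at 9 months (0.75 ± 0.29), a difference of 2.45 (adjusted p = 0.019). Their 3-month calls held in 0 and 1 of the 6 fits that left out a library.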

How the results depend on the processing

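No paired analysis was possible because the labels carry mouse identifiers and no replicate numbers. The 113 calls (32 higher, 81 lower) became 120 with another scaling, 347 with no filter on low counts, 259 with DESeq2, 218 in a fit of the 6 libraries at 3 months alone and 180 with the choroid plexus score as a covariate, and 113, 113, 111, 111 and 109 of the 113 genes were among them. Leaving out 1 library left 26 to 75 calls, the fewest without Trem2 KO replicate 3; omitting App knock-in replicate 1, 2 or 3 gave 75, 33 or 53, and omitting Trem2 KO replicate 1 or 2 gave 54 or 31. Of the 113 genes 19 (6 higher, 13 lower) were called in all 6 of those fits and 107 in all other alternatives, and no called gene changed sign in any fit. Calls at a few CPM are limited by depth.

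List medians (log2) without 1 library ranged as follows for lists that turned sign or moved over 1.5 times and for the myeloid adaptors, the cause not being tested: hnRNP 0.0139 to 0.0404, SR proteins -0.0521 to -0.0208, ribosomal proteins 0.00848 to 0.0628, GABA and glycine receptors -0.0234 to 0.0292, presynaptic -0.00216 to 0.0157, dentate granule -0.0128 to 0.0495, inhibitory neuron -0.100 to -0.0174, neurogenesis 0.0423 to 0.0892, pan-neuronal -0.00903 to 0.0346, reactive astrocyte -0.0397 to 0.0672, myelinating oligodendrocyte -0.0592 to 0.154, oligodendrocyte precursor -0.0861 to -0.000852, plaque-associated microglia -0.127 to -0.0383, integrated stress response -0.0458 to 0.00987, glucocorticoid-responsive -0.0714 to 0.0151, lysosome -0.0113 to 0.0131, mitochondrially encoded -0.00855 to 0.0153, nuclear respiratory chain 0.0369 to 0.0857, interferon response -0.244 to 0.258, T and NK cell -0.0797 to 0.0778, border macrophage -0.494 to -0.118, mural cells -0.111 to 0.00413, fibroblast -0.331 to 0.0390, neuronal RNA-binding -0.0378 to 5.5e-05, translation initiation 0.0153 to 0.0495, noncoding and host RNA -0.0702 to -0.0286, glutamate receptors -0.0193 to 0.0329, postsynaptic 0.00946 to 0.0626, channels -0.0270 to 0.0151, neuropeptides -0.147 to -0.0803, CA1 -0.0143 to 0.0332, CA3 and CA2 0.0454 to 0.128, pan-microglia -0.135 to -0.0671, myeloid adaptors -0.348 to -0.246, complement -0.325 to -0.106, circadian clock -0.114 to -0.0340, polyamine 0.0168 to 0.0502, cholesterol synthesis -0.0286 to 0.0527, lipoate 0.0378 to 0.0657, endothelium -0.158 to -0.0599, choroid plexus -0.136 to 1.72, thalamus -0.114 to 0.0621, striatum -0.209 to -0.0461, neocortex -0.154 to -0.0261 and erythroid -1.14 to 1.10. The striatum median was -0.178 with the choroid plexus covariate.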
